A study of Mus musculus with 4 samples.

Results

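The genes described here are 10 integrin subunits of leukocytes: Itgax, Itgam, Itgal, Itgb2, Itga4, Itgb1, Itgb7, Itga9, Itgav and Itgb5. They were taken by symbol from the deposited gene table, with no cut on their values. The choice was made with earlier results of these data known. They are 10 of the 27998 genes listed and 10 of the 26 integrin subunit symbols among them. They fill 11 entries, since the symbol Itgam stands in the table for both ENSMUSG00000030786 and ENSMUSG00000108596.

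Integrins are adhesion receptors of 1 alpha and 1 beta chain that bind ligands on other cells or in the matrix once signals from inside the cell have switched them to an open shape. Itgb2 (CD18) pairs with Itgal (CD11a) to form LFA-1, a receptor for ICAM proteins, with Itgam (CD11b) to form the complement receptor Mac-1, and with Itgax (CD11c) to form a further complement and fibrinogen receptor. Itga4 pairs with Itgb1 to bind VCAM1 and fibronectin or with Itgb7 to bind MADCAM1, Itga9 pairs with Itgb1, and Itgav pairs with Itgb5 to bind vitronectin. In the liver these receptors hold Kupffer cells, the resident macrophages, in the sinusoids and guide blood leukocytes out of the vessels.

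Single-cell RNA libraries were made with droplets from liver cells of C57BL/6J mice, sorted as positive for the leukocyte marker CD45 and negative for CD146, an endothelial marker. The control diet and the Amylin liver NASH model diet, which is used to bring about fatty, inflamed and scarred livers, were each represented by 2 libraries. All 4 shared the strain, the sort and digestion with flavopiridol, an inhibitor of transcription, and age, sex and time on the diet are not stated in the labels used here. Whether the libraries of a diet stem from different mice is not stated either, so p-values measure the spread between these samples only, which may be technical.

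The libraries held 1550 to 1933 barcodes. Control libraries 1 and 2 held 5513953 and 5684819 unique molecular identifiers (UMIs, counted RNA molecules), NASH libraries 1 and 2 held 13749657 and 15619962, and the median per barcode was 2573 to 3064.5 in controls and 7344 to 7447 in NASH. The median mitochondrial percent also moved with diet, at 6.43 and 6.23 in controls and 3.43 and 3.21 in NASH, and neither can be told apart from diet in what follows. After filters, 1307 and 1420 control cells and 1572 and 1859 NASH cells remained, and all integrin genes were kept out of the genes used for clustering. Barcodes shared by pairs of libraries numbered 2 to 8. The macrophage-like class, defined by high C1qa, C1qb and C1qc, held 965 and 870 control cells and 722 and 1027 NASH cells. Control macrophage-like cells separated by library, with 763 cells of control library 1 and 61 of library 2 in a cluster with Fkbp5, Lepr and Fosb as leading genes, and 159 and 734 in one with Marco, Cxcl13 and Hmox1. The diets shared almost no cluster of this class: the 3 clusters mostly of control cells held 1781 control and 6 NASH cells, and the 4 mostly of NASH cells held 54 control and 1743 NASH cells. Despite the sort, 15 to 105 endothelial-like cells per library were present. Levels are given as CPM (counts per 1000000), the UMIs of the gene summed over a class in 1 library and scaled to 1000000 UMIs of that sum. Intervals on counts and shares cover counting error only.

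Itgal, Itgam and Itgax lie on the forward strand of chromosome 7 in the mm10 build (GENCODE vM21). Itgal spans 127296260 to 127335138, Itgam 128062640 to 128118491 and Itgax 128129547 to 128150657, with 727.5 kb between Itgal and Itgam and 11.1 kb between Itgam and Itgax. The second Itgam entry is named Gm49368 in that annotation and runs from 128062683 to 128128160. It shares 68.7% of the exon bases of Itgam (3450 of 5024), so reads could be split between both, and it held at most 7 UMIs in any macrophage-like sum. The values below are for ENSMUSG00000030786. Itga4 overlaps Cerkl and Itga9 overlaps Gm2415 on the opposite strand, and the sources used here do not tell whether reads were counted by strand.

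The promoters of Itgam and Itgax are shown because, of these near neighbours, Itgax was called higher in NASH macrophage-like cells and Itgam was not called. Each runs from 250 bases before the start of the RefSeq gene to 50 after it, on the forward strand of GRCm38.p6, at chr7:128062390-128062689 and chr7:128129300-128129599. Capitals mark matches, on either strand, to TGANTCA, the letters bound by AP-1 factors, or to GAGGAA, a core bound by ETS factors such as PU.1.
Itgam: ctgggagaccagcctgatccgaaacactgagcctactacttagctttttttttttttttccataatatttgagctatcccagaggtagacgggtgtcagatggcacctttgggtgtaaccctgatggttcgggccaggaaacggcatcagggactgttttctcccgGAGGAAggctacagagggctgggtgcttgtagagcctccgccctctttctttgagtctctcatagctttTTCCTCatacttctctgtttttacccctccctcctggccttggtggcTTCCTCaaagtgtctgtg
Itgax: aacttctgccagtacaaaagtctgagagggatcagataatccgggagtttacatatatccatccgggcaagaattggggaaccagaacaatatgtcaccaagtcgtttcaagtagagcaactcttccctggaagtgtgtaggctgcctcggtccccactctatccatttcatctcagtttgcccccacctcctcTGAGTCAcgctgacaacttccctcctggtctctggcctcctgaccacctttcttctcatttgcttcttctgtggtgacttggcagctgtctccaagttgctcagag
The Itgax window held 1 TGANTCA, which begins 56 bases before the start, and 0 GAGGAA. The Itgam window held 0 TGANTCA and 3 GAGGAA. Of 32851 promoter windows of this length, 7.8% held TGANTCA and 28.3% held GAGGAA, and the 2 motifs share no overlapping letters. Promoters were found for 8 of the 10 genes. Among the others, the window of Itga9, called lower in NASH macrophage-like cells, also held 1 TGANTCA. Those of Itgb5, called higher, and Itga4, not called, held neither motif. GAGGAA was also found in the windows of Itgav, Itgb1 and Itgb7. A match describes letters only and is not evidence of a bound factor.

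In macrophage-like cells, 3 of the 10 genes rose in NASH (Itgax, Itgb2 and Itgb5), 3 fell (Itgal, Itgb1 and Itga9) and 4 did not pass the test (Itgam, Itga4, Itgb7 and Itgav). The test was edgeR's quasi-likelihood test on the 2 control and 2 NASH sums, adjusted over all 10291 genes tested, of which 44.4% were called (23.2% higher and 21.2% lower in NASH). The comparison is between sums of different clusters, as given above. A count of 6 in 10 is therefore not far from the share among all genes. All 10 genes passed the filter on low counts, and the count was 3 without NASH replicate 1 and 4 without NASH replicate 2. Fold changes use TMM factors, which rest on most genes having a like level, and these factors raised NASH over control by 0.37 on the log2 scale against plain library totals. With totals alone the median of all genes moved from -0.02 to -0.39, calls changed from 2383 higher and 2186 lower to 1305 higher and 3952 lower (12.7% and 38.4%, 51.1% of genes called), and 2 of the 10 genes were called higher (Itgax and Itgb2) and 5 lower (Itgal, Itgb1, Itga9, Itgam and Itgb7).

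**Figure D1:**
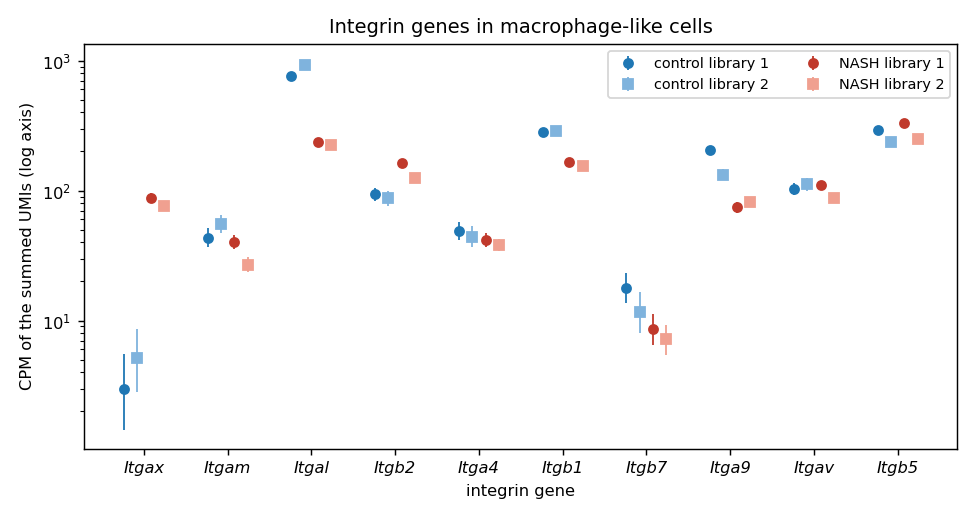
Level of each integrin gene in macrophage-like cells of the 4 libraries, as CPM on a log axis, with exact 95% Poisson intervals on the counts. Itgax lies between 2.98 and 5.12 CPM in control and 76.0 and 88.2 in NASH, Itgal lies lower in both NASH libraries, and Itgb5 and Itgav overlap between the diets.

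Itgax, widely used to mark dendritic cells and some tissue macrophages, showed the largest log2 fold change between diets among the 10 genes, while in CPM the difference was larger for Itgal. Its level was 2.98 CPM (10 UMIs, exact 95% Poisson interval 1.43 to 5.48) and 5.12 CPM (14 UMIs, 2.80 to 8.60) in control libraries 1 and 2, and 88.2 CPM (560 UMIs, 81.1 to 95.8) and 76.0 CPM (626 UMIs, 70.1 to 82.2) in NASH libraries 1 and 2. Both NASH libraries lay far above both controls, with means of 4.05 ± 1.52 (SD, n = 2) and 82.1 ± 8.67 (SD, n = 2). The log2 fold change was 4.73 with SE 0.241 (edgeR, adjusted p = 1.56e-06), and it was 4.36 to 5.14 over the alternatives run, called in each.

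Depth per cell differed between the diets, so the percent of cells in which Itgax was detected was computed at a common depth, with 1000 UMIs drawn per cell (thinning). It was 0.42% (95% Clopper-Pearson interval 0.115 to 1.07) and 0.465% (0.127 to 1.19) of control macrophage-like cells and 8.45% (6.52 to 10.7) and 6.82% (5.35 to 8.53) of NASH ones. Without thinning the shares were 1.04%, 1.26%, 40.9% and 33.4%, at median depths of 3112, 2844, 8337 and 7620 UMIs. As a measure of background, T cell-like cells of NASH libraries 1 and 2 had an Itgax UMI in 0 of 48 cells, which allows up to 6.25%, and 0 of 51, up to 5.88%, after thinning (median depths 3102.5 and 2983). B cell-like cells had 0 of 46, up to 6.52%, and 1.08% (0.027 to 5.85), at median depths of 5279.5 and 5263. The limits given for a count of 0 are 3 counts over the number of cells. They lie below the upper Clopper-Pearson limit, so they do not show that a background share is clear of the macrophage intervals. Endothelial-like cells had 3.03% of 33 cells (0.077 to 15.8) and 13.3% of 15 cells (1.66 to 40.5). The macrophage share lay above that of endothelial-like cells in library 1 and below it in library 2, with overlapping intervals in both. Those endothelial-like sums also held C1q RNA at 4282 and 2651 CPM.

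Levels of Itgax differed among macrophage-like cells of the NASH livers when these were divided by UMIs of Clec4f and Timd4, markers of resident Kupffer cells, Gpnmb, a glycoprotein of lipid-laden macrophages, and Ccr2, the chemokine receptor of monocyte-derived cells. The Clec4f+ gates left out cells with a Ccr2 UMI. The Ccr2+ gate took every macrophage-like cell with a Ccr2 UMI, whatever its Clec4f, Timd4 or Gpnmb. In NASH libraries 1 and 2, Itgax was 29.3 and 29.2 CPM in Clec4f+ Timd4+ cells and 48.0 and 35.9 CPM in Clec4f+ Timd4- Gpnmb- cells. It was 97.9 and 97.5 CPM in Clec4f+ Timd4- Gpnmb+ cells, 87.7 and 153 CPM in Clec4f- Ccr2- cells and 134 and 105 CPM in Ccr2+ cells. The first 2 gates thus lay below the other 3 in both libraries, and the range of Clec4f- Ccr2- cells spanned those of both remaining gates. In control libraries with at least 10 cells in a gate, Itgax was 0 to 16.1 CPM. The Clec4f+ Timd4+ gate, at 1.6 and 2.0 CPM in controls, was lower than either NASH library. A gate on 1 UMI depends on depth, which was higher in NASH, and on free RNA: in NASH a Clec4f UMI was found in 74.1% and 77.1% of macrophage-like cells, 35.05% and 31.5% of monocyte-like cells and 16.7% and 21.6% of T cell-like cells, at median depths of 7620 to 8337, 6232 to 6793 and 2983 to 3102.5 UMIs. The values carry no test.

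**Figure D2:**
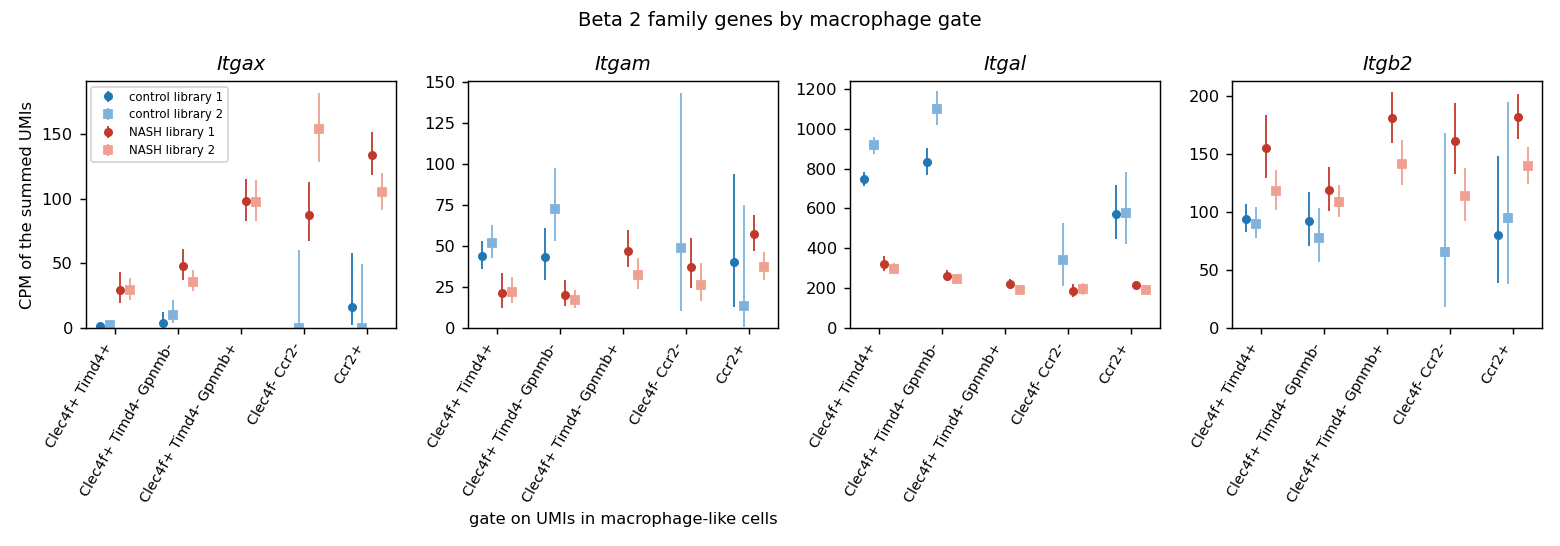
CPM of Itgax, Itgam, Itgal and Itgb2 in macrophage-like cells gated on UMIs of Clec4f, Timd4, Gpnmb and Ccr2, with exact 95% Poisson intervals, for libraries with at least 10 cells in the gate. The Clec4f+ gates leave out cells with a Ccr2 UMI, and the Ccr2+ gate takes all cells with one. Itgax climbs from 29.3 and 29.2 CPM in Clec4f+ Timd4+ cells of NASH to 97.9 and 97.5 CPM in Clec4f+ Timd4- Gpnmb+ cells, and Itgal in NASH lies below every control value shown for the same gate.

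Among macrophage-like clusters of NASH, Itgax was highest in the one led by Gpnmb, Fabp5 and Cd63, with 196 and 244 CPM in libraries 1 and 2 (108 and 83 cells). It was 84.5 and 89.6 CPM in the cluster led by Mmp12, Mmp13 and Il1rn and 87.3 and 92.2 CPM in the one led by Cx3cr1, Olfml3 and H2-M2. The lowest values, 16.5 and 13.1 CPM, were in the cluster led by Folr2, Ccl2 and Apoc1. The order of highest and lowest was the same in both NASH libraries. The clusters were drawn from other genes of the same cells, so the values are a description.

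NASH macrophage-like cells with an Itgax UMI after thinning numbered 61 and 70, against 661 and 957 without. Gpnmb stood at 574 CPM with and 297 without in NASH library 1, and at 857 and 135 in library 2. Of the other genes looked at, Cd63, Cd9, Cd74, Mmp12, H2-M2, Ccr2, Itgb1 and Itgb2 also stood higher with an Itgax UMI in both libraries. For Mmp12, H2-M2, Ccr2, Itgb1 and Itgb2 the counting intervals overlapped in library 1, library 2 or both. Cd63, a tetraspanin of late endosomes, stood at 1557 against 955 and at 1400 against 789 CPM. Clec4f went the other way, with 885 against 2095 and 1014 against 2831 CPM, and Timd4 with 16.4 against 49.9 and 0 against 74.2. C1qa was also lower, with 4672 against 5467 and 4843 against 6216 CPM. Itga4 and Cd163 were lower in both libraries too, on 0 or 1 UMI in the cells with Itgax. Trem2, a lipid receptor of macrophages, had no shared direction, with 869 against 1003 CPM in library 1 and 1343 against 878 in library 2, nor had Cx3cr1, the fractalkine receptor, with 213 against 228 and 371 against 241. Among the integrins, Itgav was 230 CPM (14 UMIs, 125 to 385) against 92.3 (70.6 to 119) in library 1, while in library 2 the cells with Itgax (7 UMIs, interval 40.2 to 206) spanned the 97.2 CPM of those without. Itgam was 65.6 against 25.7 and 57.1 against 30.3 CPM, on 4 UMIs in the cells with Itgax in each library and with overlapping intervals. Itgal was 262 against 254 in library 1 and 186 against 258 in library 2, and Itgb5, Itga9 and Itgb7 had no shared direction either.

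Itgal, the alpha chain of LFA-1, fell in NASH macrophage-like cells. Its level was 758 and 932 CPM in control libraries 1 and 2 (2542 and 2545 UMIs) and 237 and 226 CPM in NASH libraries 1 and 2 (1505 and 1862 UMIs). The groups did not overlap, with means of 845 ± 123 (SD, n = 2) and 232 ± 7.88 (SD, n = 2). The log2 fold change was -1.50 with SE 0.151 (edgeR, adjusted p = 6.23e-05), and it was called in each alternative run, from -1.87 to -1.35. After thinning, 54.9% and 59.7% of control cells and 22.0% and 21.4% of NASH cells had an Itgal UMI. In NASH gates Itgal was 184 to 321 CPM, and in control gates with at least 10 cells 344 to 1101 CPM. The NASH Clec4f+ Timd4+ cells, at 321 and 296 CPM, lay below the 748 and 916 CPM of the same gate in controls. Both main control clusters stood high, with 758 CPM in the Fkbp5-led cluster of control library 1 and 1001 CPM in the Marco-led cluster of library 2.

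Itgb2, the shared beta chain of Itgal, Itgam and Itgax, rose in NASH. It was 93.3 and 87.5 CPM in control libraries 1 and 2 and 162 and 125 CPM in NASH libraries 1 and 2. Neither NASH library reached down to a control, with means of 90.4 ± 4.11 and 143 ± 26.4 (SD, n = 2 each). NASH exceeded control by 1.04 on the log2 scale with SE 0.161 (edgeR, adjusted p = 0.000586). It was 0.66 with library totals alone (edgeR, adjusted p = 0.0055), and it was called in each alternative run. Within NASH, Itgb2 was 118 and 109 CPM in Clec4f+ Timd4- Gpnmb- cells and 180 and 141 CPM in Clec4f+ Timd4- Gpnmb+ cells.

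Itgam, the alpha chain of Mac-1, did not pass the test. It was 43.5 and 55.3 CPM in control libraries 1 and 2 and 40.0 and 26.9 CPM in NASH libraries 1 and 2. The groups lay close, with NASH library 1 just under control library 1. In the fit its log2 fold change was -0.19 with SE 0.218 (edgeR, adjusted p = 0.505), it was -0.56 with library totals alone (adjusted p = 0.0499), and it turned to 0.09 without NASH replicate 2. In NASH, Itgam was 47.3 and 32.3 CPM in Clec4f+ Timd4- Gpnmb+ cells and 20.2 and 17.0 CPM in Clec4f+ Timd4- Gpnmb- cells.

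Itgb1, the beta chain of the receptors for VCAM1 and many matrix proteins, fell. It was 281 and 287 CPM in controls and 167 and 154 CPM in NASH, without overlap. Its log2 fold change was -0.45 with SE 0.135 (edgeR, adjusted p = 0.0193). The call was lost after thinning (log2 fold change -0.18, adjusted p = 0.454), without NASH replicate 1 (adjusted p = 0.0851) and without NASH replicate 2 (adjusted p = 0.21).

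Itga9, which pairs with Itgb1 and binds tenascin and osteopontin, fell from 204 and 133 CPM to 74.4 and 82.1 CPM. The control libraries differed more from each other than the NASH libraries did, but all control values lay above NASH. On the log2 scale the fold change was -0.74 with SE 0.194 (edgeR, adjusted p = 0.0128). It was not called after thinning (adjusted p = 0.0502), nor without control replicate 1 (log2 fold change -0.39, adjusted p = 0.0584), NASH replicate 1 (adjusted p = 0.0878) or NASH replicate 2 (adjusted p = 0.0562).

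Itgb5, the vitronectin receptor's beta chain, was called higher with TMM factors, although its CPM overlapped between diets. It was 295 and 236 CPM in controls and 328 and 249 CPM in NASH. Under TMM the log2 fold change was 0.49 with SE 0.177 (edgeR, adjusted p = 0.0445). With library totals alone it was 0.12 (adjusted p = 0.584), and the call was also lost with DESeq2 (adjusted p = 0.0522), after thinning (0.38, adjusted p = 0.17) and without control replicate 2 (0.34, adjusted p = 0.195) or NASH replicate 1 (0.27, adjusted p = 0.381).

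Itga4 was 48.9 and 44.3 CPM in controls and 41.4 and 38.1 CPM in NASH. Its log2 fold change was 0.14 with SE 0.155 under TMM (edgeR, adjusted p = 0.498) and -0.23 with totals alone. Itgav, the partner of Itgb5, was 103 and 112 CPM in controls and 111 and 88.3 CPM in NASH. Its log2 fold change was 0.26 with SE 0.153 under TMM (edgeR, adjusted p = 0.19) and -0.11 with totals alone, so the direction of Itga4 and Itgav turned with the scaling. Itgb7, which marks gut-homing lymphocytes with Itga4, was low, at 17.9 and 11.7 CPM in controls and 8.66 and 7.16 CPM in NASH. Its log2 fold change was -0.56 with SE 0.27 (edgeR, adjusted p = 0.116), and -0.93 with totals alone (adjusted p = 0.0151).

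In Clec4f-positive macrophage-like cells alone (960 and 849 control cells, 535 and 792 NASH cells), 2 of the 10 genes rose, 3 fell and 5 did not pass, where 42.3% of 10000 genes were called (22.3% higher and 20.1% lower). Itgax rose with a log2 fold change of 4.49 (SE 0.29, edgeR, adjusted p = 1.02e-05) and Itgb2 with 0.99 (edgeR, adjusted p = 0.000903). Itgal fell by 1.44 on the log2 scale, Itga9 by 0.70 and Itgb1 by 0.43 (edgeR, adjusted p = 0.000101, 0.0168 and 0.0263). Itgb5, at 0.40, did not pass (adjusted p = 0.109). A Clec4f UMI was found in 99.5% and 97.6% of control macrophage-like cells, and the shares in other classes, given above, show that 1 UMI also occurs outside this class. The count fell to 3 after thinning and without either NASH library.

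Markers of other cells in the macrophage-like sums moved as follows, and their part in the results was not tested. The 17 dendritic cell markers summed to 581 and 534 CPM in controls and 559 and 570 CPM in NASH. The largest was Ckb, at 291 and 260 CPM in controls and 333 and 347 CPM in NASH. Batf3 followed, at 118 and 93.7 against 94.7 and 97.3 CPM. Others were near 0 in all libraries, such as Flt3 at 0.6 to 2.21 CPM, Xcr1 at 0.6 to 2.21 CPM and Zbtb46 at 0.12 to 1.83 CPM. Ccr7 was 0 and 0 CPM in controls and 1.58 and 1.46 CPM in NASH. The 13 monocyte markers summed to 871 and 761 CPM in controls and 593 and 808 CPM in NASH. Among them Ccr2 was higher in NASH, at 12.5 and 12.4 CPM in controls and 88.9 and 74.4 CPM in NASH. Cd300e was lower, at 145 and 139 against 18.9 and 47.8 CPM, and Plac8, the largest, was 468 and 319 against 254 and 413 CPM. The 16 T cell markers, 13 of them in the table, summed to 41.1 and 68.4 CPM in controls and 21.4 and 21.5 CPM in NASH. Endothelial markers summed to 291 and 316 CPM in controls and 110 and 107 CPM in NASH, hepatocyte markers to 674 and 824 against 235 and 128, and plasma cell markers to 347 and 366 against 158 and 205. Lists that stood higher in both NASH libraries were those of NK cells and ILC1, plasmacytoid dendritic cells and cycling cells. NK cell and ILC1 markers summed to 63.5 and 75.4 CPM in controls and 103 and 130 CPM in NASH. Among them Ccl5 was 16.7 and 31.8 against 65.7 and 67.8 CPM, and Klra4, Klra7 and Klra9 were at 0 in all libraries. Plasmacytoid markers summed to 595 and 630 against 688 and 917, with Bst2 at 367 and 384 against 578 and 822. In that list Siglech, at 14.9 and 17.9 against 2.05 and 1.21, Ccr9, Ly6d and Tcf4 were lower in both NASH libraries. Cycling markers summed to 916 and 907 against 1192 and 1121. B cell markers summed to 159 and 161 against 106 and 109, and neutrophil markers to 99.2 and 92.6 against 99.6 and 86.0.

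Across classes with at least 10 cells in both libraries of a diet, Itgax in control livers was highest in dendritic cell-like cells, with 164 and 77.2 CPM in libraries 1 and 2 (10 and 28 cells). Plasmacytoid dendritic cell-like cells followed with 34.1 and 50.6 CPM, below that range. NK cell or ILC1-like cells, with 6 and 20 control cells, had 95.5 CPM in control library 2 (4 UMIs), above the dendritic value of that library. The remaining classes ran from other cycling cells (8.58 and 17.4 CPM) down to macrophage-like cells, where neighbours in the order of means overlapped except endothelial-like over B cell-like cells. In NASH, dendritic cell-like cells had 117 and 112 CPM (180 and 158 cells), above the 88.2 and 76.0 CPM of macrophage-like cells. From there the means ran down without a gap. Endothelial-like cells (mean 79.5 CPM) came next, then cycling C1q-high cells (70.7 and 78.7 CPM), B cell-like cells (mean 69.7 CPM) and other cycling cells (mean 66.9 CPM). Below them were NK cell or ILC1-like cells (71.3 and 57.8 CPM) and monocyte-like cells (49.9 and 63.1 CPM). Neutrophil-like cells (mean 49.4 CPM) and plasmacytoid dendritic cell-like cells (58.2 and 38.2 CPM) followed. T cell-like cells stood apart with 0 and 16.3 CPM.

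**Figure D3:**
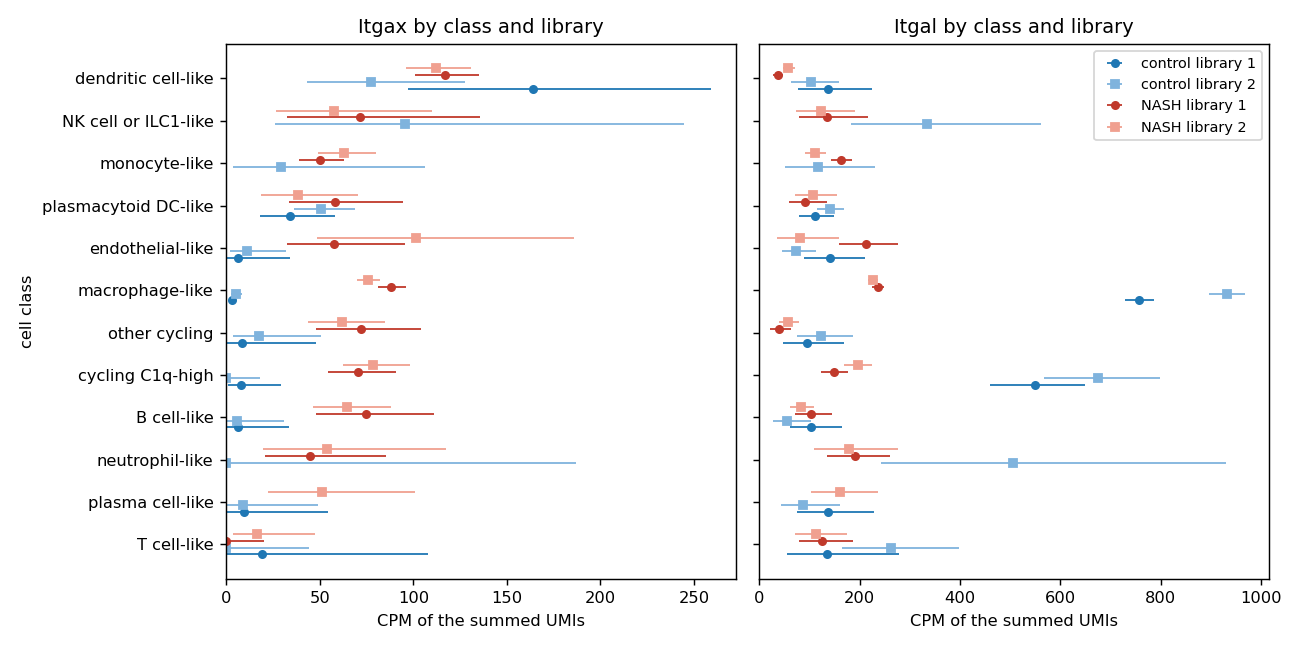
CPM of Itgax (left) and Itgal (right) in each class and library with at least 10 cells, with exact 95% Poisson intervals and classes ordered by mean Itgax. Macrophage-like and cycling C1q-high cells of NASH lie above control for Itgax and below it for Itgal, whereas Itgax in dendritic cell-like and plasmacytoid cells overlaps between diets.

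The other genes were spread over the classes in different ways. Among sums of at least 10 cells, Itgal was highest in macrophage-like cells under both diets, followed in NASH by neutrophil-like cells (190 and 180 CPM) in the order of means. Itgam was highest in neutrophil-like cells, with 115 and 180 CPM in NASH, and monocyte-like cells, with 135 and 139 CPM, ranges that overlap. T cell-like cells held 0 or 1 UMI of Itgam in each library. Itgb2 in NASH was highest in monocyte-like cells (230 and 210 CPM) and NK cell or ILC1-like cells (238 and 186 CPM), which overlap too.

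Itgb7 was highest in T cell-like cells, with 523 and 359 CPM in controls and 395 and 244 CPM in NASH, and was 7.16 to 17.9 CPM in macrophage-like cells. Its level in plasmacytoid dendritic cell-like cells was 171 and 166 CPM in controls and 251 and 164 CPM in NASH. Itga9 was highest in macrophage-like, cycling C1q-high and endothelial-like cells, the last with 134 and 72.8 CPM in controls and 119 and 162 CPM in NASH, and no NK cell or ILC1-like sum held a UMI of it. Among leukocyte sums of at least 10 cells, Itgb5 was highest in macrophage-like cells, with 171 and 171 CPM in cycling C1q-high cells of controls and 217 and 193 CPM in those of NASH. Monocyte-like cells of NASH had 164 and 125 CPM of Itgb5 and T cell-like cells 5.42 and 21.7 CPM. Among leukocyte classes with at least 10 cells in both NASH libraries, Itga4 was highest in monocyte-like cells (125 and 122 CPM). Itgb1 was widespread, from 53.9 CPM in neutrophil-like cells of NASH library 2 to 287 CPM in macrophage-like and NK cell or ILC1-like cells of control library 2, with 316 CPM in endothelial-like cells of control library 1.

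Within dendritic cell-like cells of NASH, the cluster led by Cd209a, Tppp3 and Klrd1 and the one led by Xcr1, Naaa and Cd24a had like levels of Itgax, 151 and 133 CPM and 139 and 128 CPM. The cluster led by Fscn1, Ccr7 and Ccl22, markers of mature migratory dendritic cells, had 24.2 and 56.6 CPM. Itgam separated the first 2, with 62.4 and 63.9 CPM in the Cd209a-led and 1.8 and 3.6 CPM in the Xcr1-led cluster. The Fscn1-led cluster was low in Itgb7 (8.1 and 2.7 CPM, against 213 and 223 CPM in the Cd209a-led cluster and 184 and 222 CPM in the Xcr1-led one) and in Itgb2 (18.8 and 16.2 CPM, against 121 to 256 CPM in the others). It was high in Itga4, at 153 and 175 CPM against 46.9 to 88.3 CPM, and in Itgb1, at 199 and 221 CPM against 96.3 to 163 CPM. These clusters held 42 to 82 cells per NASH library.

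The makeup of the UMIs of 3 alpha chains that pair with Itgb2 also differed. In macrophage-like cells Itgal made up 94.2% and 93.9% of the summed UMIs of Itgal, Itgam and Itgax in controls and 64.9% and 68.7% in NASH. Itgax made up 0.37% and 0.52% in controls and 24.2% and 23.1% in NASH. In monocyte-like cells of NASH, Itgam made up 39.0% and 44.6% and Itgax 14.4% and 20.2%. In dendritic cell-like cells Itgax made up 47.4% and 31.3% in controls and 63.9% and 57.3% in NASH. These are shares of UMIs, which the genes' detection also sets, and not shares of protein.

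**Figure D4:**
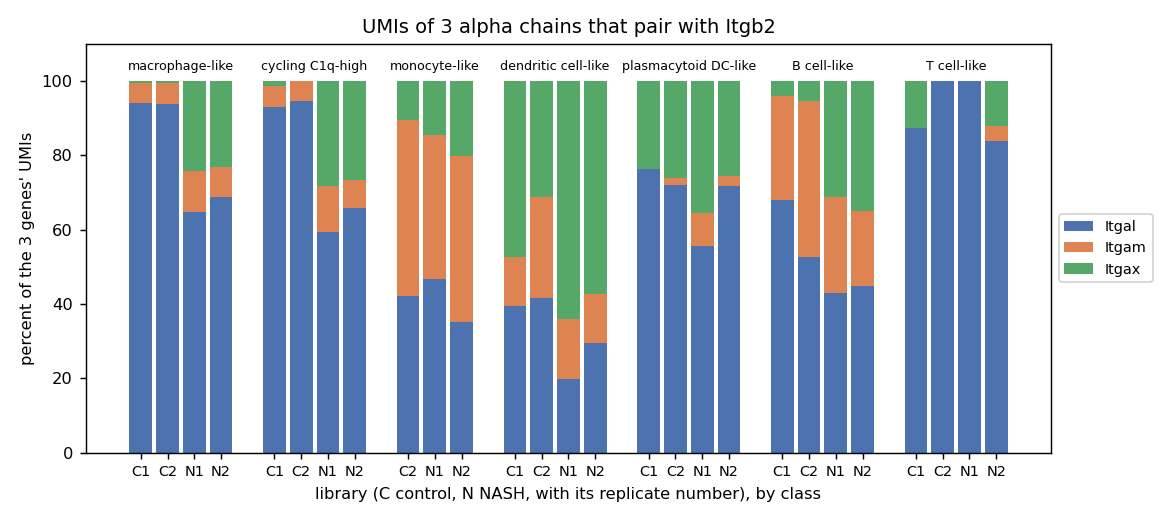
Percent of the summed UMIs of Itgal, Itgam and Itgax that each gene makes up, by class and library (C1 and C2 control, N1 and N2 NASH), for libraries with at least 10 cells. The Itgax share in macrophage-like cells is 0.37% and 0.52% in control and 24.2% and 23.1% in NASH.

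Outside macrophage-like cells, 11 calls were made over the members in 7 classes with at least 10 cells in every library. Cycling C1q-high cells gave 4 of them, at a background of 23.2% of 6211 genes (12.7% higher and 10.4% lower). Cycling C1q-high cells express the genes of dividing cells together with C1q. Itgal fell by 1.53 on the log2 scale (edgeR, adjusted p = 8.06e-05) and Itga9 by 0.85 (adjusted p = 0.0283), and Itgb2 rose by 1.58 (adjusted p = 0.00198). Itgax rose there from 2 and 0 UMIs in controls to 62 and 78 UMIs in NASH, a ratio of 16.9 in CPM with a counting interval of 4.58 to 141 (edgeR, adjusted p = 0.000175). With all deposited barcodes, where the class held 10 and 12 control cells, 0 of 9 tested genes were called (edgeR, 4 at an unadjusted p under 0.05), and Itgax had a log2 fold change of 1.78 (adjusted p = 0.341). In that setting 7 of 8 tested genes were called in other cycling cells, where 802 genes were higher and 988 lower of 4690. Cells were clustered and named anew there, and whether cells moved between these classes was not tested. In the main setting none of the 10 genes in cycling C1q-high cells differed from its macrophage-like diet effect in the test of the difference (edgeR, 0 at an unadjusted p under 0.05 and 0 by DESeq2), where 0.262% of 9557 genes did.

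**Figure D5:**
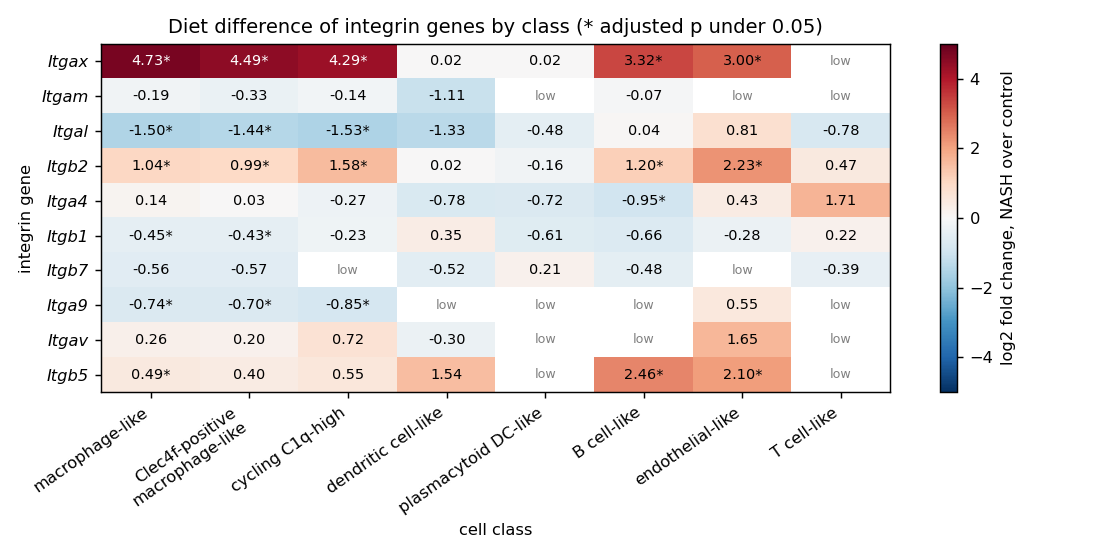
Log2 fold change, NASH over control, of each gene in macrophage-like cells and other tested classes, from edgeR with TMM factors, with an asterisk where the adjusted p is under 0.05 and "low" where the gene did not pass the filter on low counts. Itgax is 4.73 in macrophage-like cells and 0.02 in both kinds of dendritic cell-like cells, and Itgb5 in macrophage-like cells loses its asterisk with library totals alone.

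Dendritic cell-like cells differed in makeup between the diets: control libraries 1 and 2 held 6 and 18 Xcr1-led, 4 and 6 Cd209a-led and 0 and 4 Fscn1-led cells, and NASH libraries 49 and 52, 82 and 64, and 49 and 42. All 3 clusters were mostly of NASH cells, and the Fscn1-led one was low in Itgax. In this class 0 of 9 tested genes were called (edgeR, 5 at an unadjusted p under 0.05, and 0 by DESeq2), at a background of 1.53%. Itgax had a log2 fold change of 0.02 (SE 0.309), and Itgal, at 137 and 103 CPM in controls and 36.5 and 57.8 CPM in NASH, had -1.33 (edgeR, adjusted p = 0.0977). Itgal was called lower in this class in 6 alternatives: with the stricter cell filter (adjusted p = 0.034), at Leiden resolution 0.5 (0.00611), without a low-count filter (0.0489), with the replicate block (0.0428), and without control replicate 2 (0.0432) or NASH replicate 2 (0.0035). In plasmacytoid dendritic cell-like cells 0 of 6 were called (edgeR, 1 at an unadjusted p under 0.05, and 0 by DESeq2), at a background of 2.09%, with Itgax at 0.02 (SE 0.384). In T cell-like cells 0 of 5 were called (edgeR, 1 at an unadjusted p under 0.05, and 0 by DESeq2), at a background of 0.519%. In other cycling cells 0 of 6 were called (edgeR, 3 at an unadjusted p under 0.05, and 0 by DESeq2), at a background of 2.78%, and Itgax had 2.15 (adjusted p = 0.0655). There upper-quartile factors gave 1 call of 6 (47 genes higher and 56 lower of 3454), and no low-count filter 2 of 10 (68 and 65 of 12634). All deposited barcodes gave 7 of 8 (802 and 988 of 4690). The smaller classes hold few cells, and a gene that misses the threshold there is not shown to be equal between diets.

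B cell-like cells gave 4 calls, at a background of 18.7% of 2676 genes (9.68% higher and 9.01% lower). Itgax went from 1 and 1 UMIs in controls to 24 and 40 in NASH, a ratio of 11.8 with a counting interval of 3.12 to 99.2 (edgeR, adjusted p = 0.000101). Itgb2 was 30.3 and 50.0 CPM in controls and 131 and 87.4 CPM in NASH (edgeR, adjusted p = 0.0232), and Itgb5 30.3 and 16.7 CPM against 218 and 90.6 CPM (edgeR, adjusted p = 0.0471). Itga4 was lower in NASH, 74.7 and 80.9 CPM against 109 and 161 CPM (edgeR, adjusted p = 0.018). The summed level of C1qa, C1qb and C1qc, which B cells do not make, was 831 and 749 CPM in the control sums and 6624 and 4743 CPM in the NASH sums. With only B cell-like cells of at most 2 C1q UMIs kept (32, 45, 19 and 46 cells), 3 of the 10 genes were tested. Of these, 0 were called (edgeR, 0 at an unadjusted p under 0.05), where 7 genes were higher and 22 lower of 1261. Itgax, Itgb2 and Itgb5 did not pass the filter on low counts, so the setting gives no test of them. That setting has fewer cells as well as less C1q RNA, and its Itga4 log2 fold change was -0.53 (edgeR, adjusted p = 0.712). At Leiden resolution 2.0, 3 of the 10 genes were tested, where 6 genes were higher and 30 lower of 1604. With DESeq2, 98 genes were higher and 122 lower of 2676. The 4 calls became 1 with DESeq2, the stricter cell filter, all barcodes, Leiden resolution 0.5, integrins kept in the clustering or without NASH replicate 1, 2 without control replicate 2 or NASH replicate 2, and 0 at resolution 2.0. The Itgax call was lost without NASH replicate 1 (adjusted p = 0.0561) or NASH replicate 2 (adjusted p = 0.0513). Over the alternatives run the adjusted p reached 0.283 for Itgb2, 0.427 for Itgb5 and 0.748 for Itga4 (edgeR).

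Endothelial-like cells that passed the sort gave 3 calls, at a background of 9.37% of 3554 genes (4.45% higher and 4.92% lower). Itgax held 1 and 3 UMIs in controls and 15 and 10 in NASH, a ratio of 7.66 with a counting interval of 2.65 to 30.3 (edgeR, adjusted p = 0.0202). Itgb2 was 18.2 and 32.7 CPM in controls and 131 and 101 CPM in NASH (edgeR, adjusted p = 0.00599), and Itgb5 42.5 and 18.2 CPM against 139 and 60.7 CPM (edgeR, adjusted p = 0.0218). C1q RNA stood at 1842 and 1364 CPM in the control sums and 4282 and 2651 CPM in the NASH sums, and its part in these results was not tested, since too few cells remained with at most 2 C1q UMIs. With DESeq2 0 of the 8 tested genes were called. Without NASH replicate 2, which held 15 of these cells, Itgax had an adjusted p of 0.174, and without NASH replicate 1 Itgb2 had 0.465. Without control replicate 2 Itgax had 0.0824 and Itgb5 0.176. Monocyte-like cells, with 8 and 13 control cells, were not fitted in the main setting. With at least 4 cells per library, 1.12% of 5272 genes were called and 1 of the 10, Itgb5 (edgeR, adjusted p = 0.0415). It had 0 and 1 UMIs in control sums of 44873 and 68172 UMIs, and 240 and 133 in NASH sums of 1464106 and 1061422. In CPM this was 14.7 in control library 2 and a mean of 145 in NASH. In a monocyte-like class at Leiden resolution 0.5, 1 of the 10 was called, where 37 genes were higher and 64 lower of 6758. Over all classes outside macrophage-like cells, the 11 calls became 4 without NASH replicate 1.

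The difference of the diet effects between classes was tested with an interaction term, with the library as block. Itgax differed between dendritic cell-like and macrophage-like cells by -4.49 on the log2 scale (edgeR, adjusted p = 4.98e-19), at a background of 5.32%, and by -4.50 between plasmacytoid dendritic cell-like and macrophage-like cells (edgeR, adjusted p = 1.43e-18), at a background of 8.5%. The first was lost after thinning (-4.00, adjusted p = 0.131), and the second was called in each alternative run, with adjusted p up to 0.00208. Itgb2 and Itgal also differed between plasmacytoid dendritic cell-like and macrophage-like cells, by -1.10 (edgeR, adjusted p = 0.00235) and 1.15 (edgeR, adjusted p = 0.00313). Without control replicate 2 these had adjusted p of 0.146 and 0.0769, Itgb2 had 0.117 without NASH replicate 1, and Itgal had 0.178 without NASH replicate 2. Itgb1 differed by 1.04 between dendritic cell-like and macrophage-like cells (edgeR, adjusted p = 0.0199), a call lost when any 1 library was left out.

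Itgal further differed by 1.73 between B cell-like and macrophage-like cells (edgeR, adjusted p = 3.85e-05), at a background of 7.68%, and by 2.25 between endothelial-like and macrophage-like cells (edgeR, adjusted p = 1.09e-06), at a background of 2.98%. In B cell-like cells with at most 2 C1q UMIs the first was 0.0038 (adjusted p = 1.0), without control replicate 2 it was 1.18 (adjusted p = 0.0951), and without NASH replicate 1 the second was 1.20 (adjusted p = 0.606). Itga9 and Itgb5 differed by 2.67 and 2.14 in B cell-like cells (edgeR, adjusted p = 0.0355 and 0.000314). With at most 2 C1q UMIs these turned to -0.50 and -1.61. The difference in Itga9, which held 0 and 2 UMIs in the control B cell-like sums, was 1.46 without control replicate 1 (adjusted p = 0.478), 10.3 without control replicate 2 (adjusted p = 0.0141) and 2.15 without NASH replicate 1 (adjusted p = 0.299). T cell-like and other cycling cells gave 0 such calls (edgeR, 3 and 2 at an unadjusted p under 0.05, and 0 by DESeq2), at backgrounds of 0.791% and 1.89%.

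Of 16 other integrin subunits in a list taken for comparison, 2 passed the filter on low counts in macrophage-like cells. Itga6, a laminin receptor chain, rose from 1.49 and 1.46 CPM to 15.8 and 13.1 CPM (log2 fold change 3.63, edgeR, adjusted p = 5.4e-05). Itga5, the fibronectin receptor's alpha chain, was 10.7 and 27.5 CPM in controls and 12.3 and 16.9 CPM in NASH and did not pass (log2 fold change 0.03, adjusted p = 0.965).

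The lists below are read against 23.2% of all genes called higher and 21.2% lower with TMM factors, and 12.7% and 38.4% with totals alone. Of 28 ligands, 17 were tested, 7 rose and 7 fell (3 and 9 with totals alone). Their median log2 fold change was -0.26, against -0.02 for all genes. Vcam1, the ligand of Itga4 with Itgb1, fell from 1277 and 880 CPM to 332 and 411 CPM (log2 fold change -1.17, edgeR, adjusted p = 0.00111). Icam2, a ligand of LFA-1, rose from 16.1 and 13.2 to 22.4 and 28.9 CPM (1.17, adjusted p = 0.0012). Emilin1, a matrix ligand of Itga4 and Itga9, rose from 7.15 and 4.03 to 15.1 and 13.8 CPM (1.70, adjusted p = 0.000945), and Postn, the matrix protein periostin, fell from 8.05 and 10.6 to 0.63 and 0.36 CPM (-3.84, adjusted p = 0.000154).

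Of 22 genes for proteins that bind integrin tails or switch integrins on from inside the cell, 17 were tested, 5 rose and 3 fell (2 and 6 with totals alone), with a median of 0.14, and the 8 calls are near the background of 44.4%. Rassf5 (RAPL), a RAP1 effector that binds LFA-1, fell from 124 and 91.9 to 35.9 and 39.7 CPM (-1.15, edgeR, adjusted p = 0.000409). Cyth1, which binds the Itgb2 tail, fell from 115 and 97.7 to 50.9 and 42.0 CPM (-0.83, adjusted p = 0.00182). Itgb1bp1 (ICAP-1), which binds the Itgb1 tail, rose from 21.2 and 17.9 to 31.4 and 36.3 CPM (1.15, adjusted p = 0.000572). Dab2, an endocytic adaptor, fell from 166 and 153 to 68.1 and 76.0 CPM (-0.77, adjusted p = 0.00114).

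Of 28 genes of signalling and adhesion complexes downstream of integrins, 25 were tested, 3 rose and 8 fell (1 and 18 with totals alone), with a median of -0.29, and the 11 calls are at the background of 44.4%. Pxn (paxillin) fell by 1.01 on the log2 scale, the adaptor Crk by 0.90 and the ubiquitin ligase Cbl by 0.88 (edgeR, adjusted p = 0.000768, 0.000756 and 0.000669). Parvg, the parvin of blood cells, rose by 1.07 (edgeR, adjusted p = 0.00108). Of 16 membrane partners, 15 were tested, 11 rose and 1 fell (6 and 2 with totals alone), with a median of 0.62 (0.25 with totals alone). Cd9, a tetraspanin, rose from 10.7 and 11.4 to 467 and 317 CPM (5.52, edgeR, adjusted p = 1.56e-06), Plaur, the urokinase receptor, by 1.98 and Slc3a2, the CD98 heavy chain, by 1.11 (edgeR, adjusted p = 5.4e-05 and 0.000185). Cd44, a hyaluronan receptor, fell from 1097 and 1312 to 334 and 409 CPM (-1.33, edgeR, adjusted p = 0.000145).

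Genes with the most similar pattern across classes were sought by Pearson's correlation of log2(CPM + 1) over 33 sums of a class in a library with at least 20 cells. The sums share libraries and depth, so the values are descriptive. For Itgax they were Rnh1 (0.777), Sdf2l1 (0.772), Lat2 (0.757), Arpc3 (0.702) and Ssr4 (0.7). For Itgb7 they were Sept6 (0.954) and Cnn2 (0.921), for Itgb5 C3ar1 (0.934) and Lipa (0.914), and for Itga9 Atp6v1a (0.92) and Hpgd (0.903). Lower values were found for Itgam with Kdm7a (0.823) and Plbd1 (0.764), Itgal with Atp1b3 (0.813) and C6 (0.784), and Itgb2 with Pfn1 (0.817) and Arpc1b (0.805). The same held for Itgb1 with Zcchc11 (0.83) and Pitpnc1 (0.801), Itgav with Fam111a (0.832) and Acp5 (0.806), and Itga4 with Idh3b (0.687) and Pyhin1 (0.553).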

How the data were processed

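RNA was measured in 4 droplet libraries, 2 control and 2 NASH. The deposited values are raw UMI counts per gene and cell. The submitters' processing notes name Cell Ranger, Seurat and the mm10 build, and the sources used here do not give versions, the calling of barcodes or the use of strand. GENCODE vM21 held 27645 of 27998 identifiers (98.74%), and promoters come from RefSeq on GRCm38.p6.

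Cells needed at least 200 genes and no more than 10% mitochondrial UMIs, and the top Scrublet scores, 0.8% per 1000 cells, were removed as putative doublets (14 to 28 per library). The filter removed 14.77% and 20.39% of control and 2.87% and 2.38% of NASH barcodes. Scanpy 1.11.5 used 2000 variable genes without integrins, 30 components, 15 neighbours and Leiden resolution 1.0. Clusters were named from marker genes, and clusters with C1qa, C1qb and C1qc in at least 90% of cells were called macrophage-like or cycling. Clusters with C1q and T cell genes, among others, were left unnamed and not used.

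UMIs were summed per library and class. EdgeR 4.0.16 (R 4.3.3) was run with TMM factors, filterByExpr and robust quasi-likelihood fits, p-values were adjusted over all genes of a class by Benjamini-Hochberg with a threshold of 0.05, and SE is the log2 fold change divided by the root of F. Interactions had the library as block. Tested on simulated data for the macrophage comparison (10145 genes), 58% of 2-fold and 100% of 4-fold changes were recovered, and 52% and 98% for the plasmacytoid comparison (3540 genes). The simulation gave all genes the same spread and changed only genes above a set expected count. Its rates therefore do not cover genes with lower counts or a larger spread. Depth limits small classes. Alternatives were other normalizations, DESeq2 1.42.0, filters, clusterings, thinning to 1000 UMIs, a replicate block and leaving out each library; those with at most 2 C1q UMIs and with library totals alone were added after seeing the data.

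Named genes are the members, the 4 of each list with the smallest p in macrophage-like cells, and the 5 (Itgax) or 2 most correlated genes with a mean of at least 50 CPM. Members and lists were chosen with earlier results of these data known.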

Additional observations from a re-analysis of the deposited data

Results flagged for a closer look

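For 9 combinations of gene and class, the test of the difference between diet effects (edgeR interaction with macrophage-like cells) passed the threshold, and these values are log2 differences. Itgax differed by -4.49 in dendritic cell-like cells and by -4.50 in plasmacytoid dendritic cell-like cells. In the latter Itgb2 differed by -1.10 and Itgal by 1.15, and Itgb1 differed by 1.04 in dendritic cell-like cells. Itgal differed by 1.73 in B cell-like cells and 2.25 in endothelial-like cells, and Itga9 by 2.67 and Itgb5 by 2.14 in B cell-like cells. C1q RNA was higher in the NASH than the control sums of B cell-like and endothelial-like cells. In B cell-like cells with at most 2 C1q UMIs the differences were 0.0038 for Itgal, -0.50 for Itga9 and -1.61 for Itgb5, none of them called (edgeR), over fewer cells; for endothelial-like cells too few cells remained for this fit.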

How the results depend on the processing

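With 2 libraries per diet, leaving out 1 assumes that the lone library varies like the other diet's. The 6 calls in macrophage-like cells became 3 after thinning and 3 to 6 when a library was left out, and the 5 in Clec4f-positive cells became 3 after thinning and 3 to 6. The 11 calls in other classes became 4 with DESeq2, 1 after thinning, 4 with at most 2 C1q UMIs (where endothelial-like, T cell-like, dendritic cell-like and other cycling cells were too few to fit) and 4 to 10 without a library. The 9 interactions became 4 with DESeq2, 4 with integrins kept in the clustering, 1 after thinning, 2 with at most 2 C1q UMIs and 5 to 7 without a library. Thinning also lowers the number of molecules: in B cell-like and cycling C1q-high cells 1 and 3 members were then tested, against 8 and 9. The 1 diet call left outside macrophage-like cells was in cycling C1q-high cells, where 150 genes were higher and 178 lower of 998. The limit of 2 C1q UMIs was not set on cycling C1q-high cells, which held all 4 calls left in that setting. With DESeq2, 332 genes were higher and 191 lower of 6211 in cycling C1q-high cells, and 98 and 122 of 2676 in B cell-like cells. Of 926 alternative values for 55 single results, 788 kept their direction and call, 113 lost the call, 3 gained it and 22 turned direction. Among these, with library totals alone Itga4 was -0.23, Itgav -0.11 and Itga5 -0.34. Itgam was -0.51 to 0.0934 when a library was left out, the highest without NASH replicate 2. Itgax in dendritic cell-like cells was -0.0193 with DESeq2, -0.0142 at resolution 2.0, -0.29 after thinning and -0.40 to 0.55 without a library, the lowest without control replicate 2. In plasmacytoid cells it was -0.00193 with no filter, -0.0280 with all barcodes and -0.31 to 0.39 without a library, the lowest without NASH replicate 1. The B cell-like interactions were, at resolution 2.0 and with at most 2 C1q UMIs, -0.68 and -0.50 for Itga9 and -2.78 and -1.61 for Itgb5. The plasmacytoid interaction of Itgal was -0.0575 after thinning, and Itga5 was -0.0110 with all barcodes, -0.62 after thinning and -0.53 to 0.82 without a library, the lowest without control replicate 1. Beyond what these settings change by construction, the cause was not tested. No dendritic value could be fitted with 3 times the doublets removed, all barcodes, integrins kept or at most 2 C1q UMIs, since a control library then held under 10 cells. With at least 4 cells per library, the classes outside macrophage-like cells together had 12 calls.

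Same-numbered libraries did not deviate together (r = -0.043 over 10291 genes). The check compares only the deviation of control 1 with that of NASH 1, so it cannot tell whether the numbers pair the libraries. With the replicate number as a block, 6 members were called in macrophage-like cells, 6 in Clec4f-positive cells and 12 in other classes.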
